A study of Mus musculus with 8 samples.

Results

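The 10 genes described are part of the contractile apparatus or the matricellular Ccn family, and were measured across knockdowns of condensin II, of both condensins and of cohesin in mouse embryonic stem cells. The genes are the smooth muscle genes Cnn1, Myl9, Tagln, Acta2 and Actg2, the cardiac actin gene Actc1, the tropomyosin genes Tpm1 and Tpm2, and Ccn1 and Ccn2. They are known targets of Srf, of Yap, or of both. All 10 of 10 were found among the 18140 genes with a probe set of exactly 1 symbol, and they had 21 of the 34758 such probe sets that are not array controls. They were taken as a list by name, with the levels in the Smc1 knockdown and its GFP control in view, so their difference between those groups is a description here and is not tested.

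Srf, the serum response factor, binds a short DNA motif called the CArG box. Its myocardin-related cofactors are held in the cytoplasm by free actin monomers, and they move to the nucleus when actin filaments form. Yap and Taz, the coactivators at the end of the Hippo kinase cascade, act through Tead factors. They enter the nucleus of spread or tense cells, where Ccn1 and Ccn2 are their best known targets. Smooth muscle contractile genes are also expressed in myofibroblasts, in fibroblasts in culture and at low levels in many differentiating cells.

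The cells were V6.5 mouse embryonic stem cells infected with hairpin-carrying virus while 8 µg/ml polybrene was in the medium. They were then kept in 4 µg/ml puromycin for 4 days before total RNA was extracted. The 4 groups held 2 one-colour Affymetrix arrays each. CapH2 (gene Ncaph2, a subunit of condensin II) was depleted with hairpins 3 and 4, and Smc2 (a subunit of condensin I and II) with hairpins 1 and 2, so these arrays differ in hairpin. Smc1 (gene Smc1a, a cohesin subunit) and the GFP control have 1 hairpin each with 2 biological replicates, so effects of that hairpin on other genes cannot be told apart from those of its target. Every group, the control included, was infected and selected.

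Values are linear intensities, and levels of different genes are not compared because each probe set has its own response. Array medians lay between 62.5 and 74.5, and Cnn1, Actc1 and Actg2 had values under that range on at least 1 array. No detection calls were used, so it is not known whether such values lay above background. The targeted genes were lower in their own knockdowns: Ncaph2 fell by 2.96 on the log2 scale in CapH2, Smc2 fell by 1.64 in Smc2 and Smc1a fell by 2.95 in Smc1 (limma adjusted p = 0.00119, 0.0157 and 8.04e-05, n = 2 per group). The Actb control probe sets give a 3' to 5' ratio that bears on RNA quality. In CapH2 it read 1.67 (hairpin 3) and 1.98 (hairpin 4), and in Smc2 1.82 (hairpin 1) and 2.18 (hairpin 2). In Smc1 it read 1.70 (replicate 1) and 1.84 (replicate 2), and in GFP 2.18 (replicate 1) and 2.04 (replicate 2). The same ratio of the Gapdh control probe sets, in the same order, read 0.790 and 0.863 in CapH2 and 0.813 and 0.845 in Smc2. It read 0.833 and 0.862 in Smc1 and 0.864 and 0.857 in GFP, where the groups overlapped. The part of the Actb ratio in the differences below was not tested. A fit with it is given with the Smc1 values, but it cannot tell the ratio and the knockdown apart.

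The stretches just upstream of the genes are shown first, because the genes were listed as targets of factors that bind DNA. RefSeq promoter windows of GRCm38.p6, from 250 bases before to 50 after the gene start, were at hand for 7 of the 10 members (Actc1, Myl9, Ccn1, Tpm2, Cnn1, Tpm1 and Acta2). The windows of 5 of them follow, 5′ to 3′ on the strand of the gene. Capitals mark CArG boxes with at most 1 mismatch and CATTCC, the core that Tead factors bind, on either strand.
Actc1 (chr2:114052826-114053125, minus strand): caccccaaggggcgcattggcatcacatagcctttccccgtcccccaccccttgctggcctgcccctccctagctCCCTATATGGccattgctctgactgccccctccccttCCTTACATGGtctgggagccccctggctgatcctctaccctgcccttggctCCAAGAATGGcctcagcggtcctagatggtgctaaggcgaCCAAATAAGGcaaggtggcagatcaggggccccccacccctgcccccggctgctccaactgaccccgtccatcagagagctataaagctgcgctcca
Myl9 (chr2:156775214-156775513, plus strand): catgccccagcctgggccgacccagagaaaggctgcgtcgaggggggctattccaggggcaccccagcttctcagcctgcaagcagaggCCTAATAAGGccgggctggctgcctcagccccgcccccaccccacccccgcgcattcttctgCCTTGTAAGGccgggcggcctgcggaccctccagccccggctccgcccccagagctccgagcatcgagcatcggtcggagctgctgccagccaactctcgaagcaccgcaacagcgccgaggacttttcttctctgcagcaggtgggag
Acta2 (chr19:34255324-34255623, minus strand): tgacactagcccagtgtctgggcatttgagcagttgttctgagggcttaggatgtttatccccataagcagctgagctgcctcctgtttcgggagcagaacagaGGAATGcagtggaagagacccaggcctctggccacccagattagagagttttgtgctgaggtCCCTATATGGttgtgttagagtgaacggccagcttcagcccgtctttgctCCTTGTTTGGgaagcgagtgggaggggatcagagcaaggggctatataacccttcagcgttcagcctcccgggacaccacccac
Tpm1 (chr9:67049164-67049463, minus strand): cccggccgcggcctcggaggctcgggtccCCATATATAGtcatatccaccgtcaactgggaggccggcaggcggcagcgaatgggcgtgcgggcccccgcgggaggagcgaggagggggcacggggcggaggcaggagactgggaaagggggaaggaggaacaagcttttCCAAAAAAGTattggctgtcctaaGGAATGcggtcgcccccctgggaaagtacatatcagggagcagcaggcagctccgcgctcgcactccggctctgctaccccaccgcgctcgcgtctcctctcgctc
Ccn1 (chr3:145649936-145650235, minus strand): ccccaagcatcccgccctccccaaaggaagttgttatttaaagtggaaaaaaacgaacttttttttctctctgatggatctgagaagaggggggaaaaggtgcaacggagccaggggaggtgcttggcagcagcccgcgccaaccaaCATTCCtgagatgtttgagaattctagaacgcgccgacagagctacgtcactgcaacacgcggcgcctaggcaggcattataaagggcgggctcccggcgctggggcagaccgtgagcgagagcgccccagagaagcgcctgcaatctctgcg

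A CArG box without mismatch was found in the windows of Actc1 (CCAAATAAGG, 47 bases before the gene start) and Myl9 (CCTAATAAGG, 161 bases before), 2 of 7 members, against 1.63% of all 32851 windows. With at most 1 mismatch, 4 of 7 members had a match (Acta2, Actc1, Myl9 and Tpm1), against 21.1% of all windows. Actc1 had 4 such matches and Myl9, Tpm1 and Acta2 had 2 each. The letters CATTCC were found on one strand or the other in Acta2, Ccn1 and Tpm1, 3 of 7 members, against 14.7% of all windows, and the motif shares no letters with a CArG match in these 3. Cnn1 and Tpm2 had a match to neither motif. The letters TATAAA were found in Actc1 and Ccn1, 2 of 7 members, against 13.6% of all windows, and share no letters with the other matches. They begin at position 34 in Actc1, after the gene start, and at position -25 in Ccn1, before it. A match describes the letters of these windows only, and motifs outside them were not searched. The genes were listed as known targets of Srf or Yap, so the shares of members with a CArG box or CATTCC describe that choice.

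In the Smc1 knockdown 9 of the 10 genes lay above GFP on both arrays, and Actg2 did not. In bulk RNA, more cells that express a gene and more of its RNA per cell cannot be told apart. Myl9, the regulatory light chain of smooth muscle and non-muscle myosin, measured 2230 and 1640 on the Smc1 arrays (replicates 1 and 2), 142 and 273 on GFP, 561 and 278 on CapH2 (hairpins 3 and 4), and 682 and 340 on Smc2 (hairpins 1 and 2). Both Smc1 values lay above all others, and the lower array of each condensin group lay just above the higher GFP array. The log2 difference between Smc1 and GFP was 3.18 (SE 0.419), the fold between the means 9.34.

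Actc1, the actin of heart muscle, measured 995 and 921 on Smc1, 98.4 and 102 on GFP, 92.3 and 51.1 in CapH2, and 126 and 75.0 on Smc2. Its replicates were close together, and the condensin groups did not share the level of Smc1. The log2 difference was 3.06 (SE 0.316). Cnn1, calponin, which binds actin and restrains the myosin ATPase in smooth muscle, measured 551 and 283 on Smc1 and 11.9 and 14.2 on GFP. Its CapH2 values of 135 and 107 and its Smc2 values of 145 and 43.9 lay between the other groups without overlap. The log2 difference between Smc1 and GFP of 3.82 (SE 0.479) rests on GFP values far below the array medians, so neither its size nor its rank among the 10 is firm. With a pseudocount of 64 in place of 16 it was 2.58, below the 2.91 of Myl9 and the 2.63 of Actc1. Cnn1 lay above the array median on 5 arrays and Actc1 on 7.

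Tagln, the actin-bundling protein transgelin, measured 9340 and 4537 on Smc1, 974 and 1470 on GFP, 2709 and 1157 in CapH2, and 1672 and 2223 on Smc2. The Smc1 arrays were highest, although they differed from each other by 2.06-fold. The log2 difference between Smc1 and GFP was 2.43 (SE 0.420). Acta2, the actin of vascular smooth muscle, measured 8653 and 7799 on Smc1, 3077 and 5350 on GFP, 3715 and 1541 in CapH2, and 2302 and 3285 on Smc2. The Smc1 arrays were highest and the condensin arrays overlapped GFP, and Smc1 lay above GFP by 1.01 on the log2 scale (SE 0.380). Its bright probe set is of the kind named _s_at, whose probes can be shared between transcripts of related genes, so the signals of near-identical actins cannot be told apart there.

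Actg2, the actin of enteric smooth muscle, was the exception. It measured 39.6 and 50.9 on Smc1, 29.0 and 59.5 on GFP, 111 and 21.2 in CapH2, and 81.4 and 20.7 on Smc2. The groups overlapped, 6 of the 8 values lay below the median of their array, and the log2 difference between Smc1 and GFP was 0.07 (SE 0.654). No change in Actg2 was detectable at this signal.

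The tropomyosins run along actin filaments and set access of myosin to them. Tpm1 measured 8047 and 4691 on Smc1, 1472 and 2189 on GFP, 3403 and 1194 in CapH2, and 2164 and 2051 on Smc2. Tpm2 measured 6889 and 5522 on Smc1, 1999 and 2186 on GFP, 3380 and 2113 in CapH2, and 2523 and 2575 on Smc2. In both genes the 2 Smc1 arrays stood above the other 6. The log2 differences between Smc1 and GFP were 1.77 (SE 0.425) for Tpm1 and 1.55 (SE 0.220) for Tpm2. With the mean over all probe sets of a gene they were 0.92 and 0.83.

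Ccn1 and Ccn2 code for secreted proteins that bind integrins and growth factors in the matrix. Ccn1 measured 4761 and 2696 on Smc1, 817 and 1290 on GFP, 1824 and 555 in CapH2, and 1047 and 1169 on Smc2. Ccn2 measured 6433 and 4367 on Smc1, 1026 and 1643 on GFP, 4149 and 1687 in CapH2, and 2990 and 2627 on Smc2. In Ccn1 the CapH2 arrays lay on either side of the GFP arrays, while in Ccn2 every array of both condensin groups lay above both GFP arrays. The log2 differences between Smc1 and GFP were 1.79 (SE 0.474) and 2.02 (SE 0.380).

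**Figure D1:**
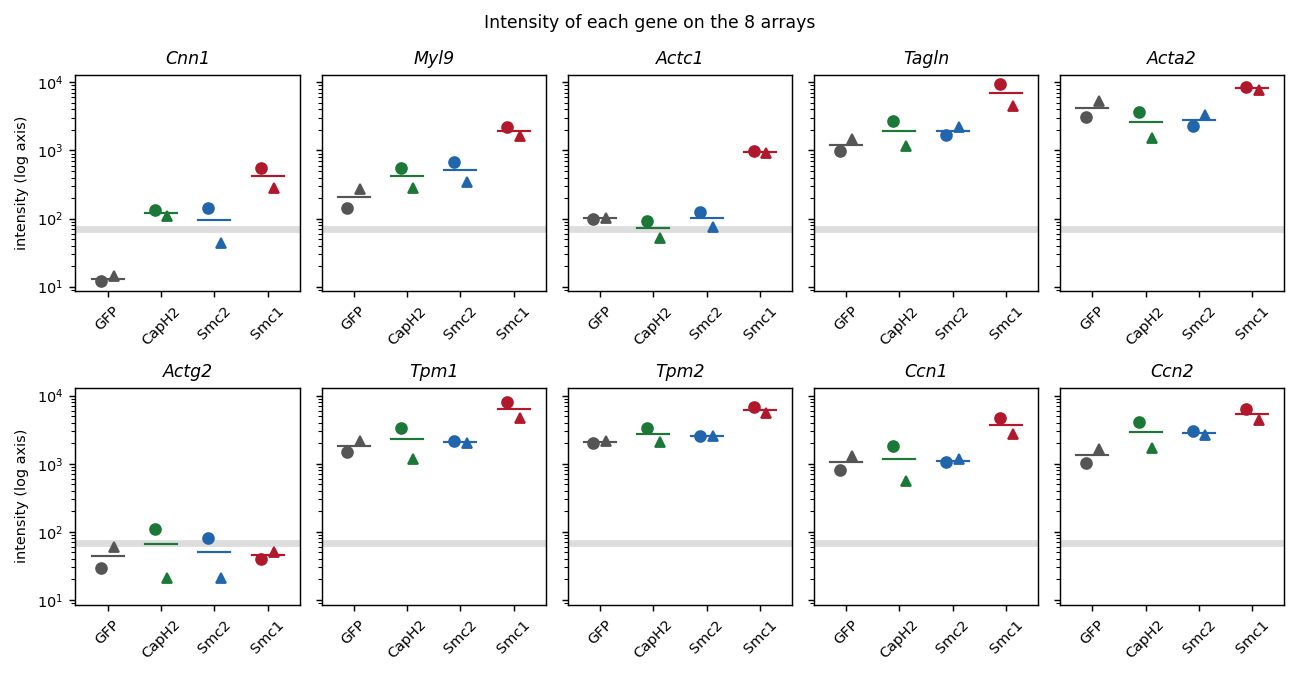
Intensity of the 10 genes (log axis) on each of the 8 arrays, with a line at each group's mean. Circles are replicate 1 of Smc1 and GFP, CapH2 hairpin 3 and Smc2 hairpin 1, triangles the other array of the group, and the grey band spans the array medians of 62.5 to 74.5. In 9 genes both Smc1 arrays lie above both GFP arrays, and Actg2 lies below the band except on CapH2 hairpin 3 and Smc2 hairpin 1.

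Over the 10 genes the median log2 difference between Smc1 and GFP was 1.90, against 0.03 over all 12400 genes tested. Of the 10, 8 were called higher at a limma adjusted p below 0.05, where 9.38% of all genes were, and 9 of 10 lay above GFP without overlap, where 34.6% of all genes did. All 10 genes passed the filter on low values, Actg2 through 1 array of CapH2 and 1 of Smc2, which are not the groups set against each other here. Since the genes were chosen on this difference, the counts describe the choice. The number called was 3 without Smc1 replicate 1. It was 4 when replicate 1 of GFP was left out and 6 when replicate 2 was. A fit with each array's Actb ratio as a covariate, added after seeing the data, called 4, with a median difference of 1.21. Both Smc1 arrays had a lower ratio than both GFP arrays, so the ratio and the knockdown cannot be told apart here. In that fit Myl9 stood at 2.11, Ccn2 at 1.2, Ccn1 at 0.93 and Tpm1 at 0.90. Tagln, Ccn2, Ccn1 and Tpm1 lost their calls there. Tpm1 was also not called with the mean over all probe sets, and Ccn1 was not called without the expression filter. Neither Tpm1 nor Ccn1 was called without the intensity trend or with the replicate number as a block.

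The Smc1 arrays were also set against the 4 condensin arrays. The log2 difference between Smc1 and the mean of CapH2 and Smc2 had a median of 1.71 over the 10 genes, against 0.02 over all genes tested. It was 3.31 (SE 0.274) for Actc1, 2.09 (SE 0.363) for Myl9 and 1.67 (SE 0.329) for Acta2, and 0.96 (SE 0.329) for Ccn2. Of the 10, 8 were called higher, where 5.60% of all genes were, and all but Actg2 lay above all 4 condensin arrays, where 20.5% of all genes did. This comparison shares the Smc1 arrays on which the genes were chosen, so it too is a description. The number called was 1 without Smc1 replicate 1 and 4 without replicate 2 of that group, and it was 5 when either GFP array was left out. With the Actb ratio as a covariate it was 8.

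No gene of the 10 was called in either condensin knockdown against GFP. Cnn1 was 2.23 higher on the log2 scale in CapH2 (SE 0.479, limma adjusted p = 0.195, n = 2 per group) and 1.76 in Smc2 (SE 0.479, adjusted p = 0.233). These values rest on the same low GFP intensities, and with a pseudocount of 64 they were 1.26 and 0.96. Ccn2 was 1.02 higher in CapH2 (SE 0.380, adjusted p = 0.342) and 1.10 in Smc2 (SE 0.380, adjusted p = 0.297). Myl9 stood at 0.95 (SE 0.419, adjusted p = 0.391) and 1.22 (SE 0.419, adjusted p = 0.294). These 3 genes lay above GFP on every array of both condensin groups, and they are the 3 of the 10 with an unadjusted p below 0.05 in each comparison, as 1568 of all genes had in CapH2 and 1565 in Smc2.

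The remaining genes stood closer to GFP or below it. Tagln stood at 0.56 in CapH2 and 0.68 in Smc2, Tpm2 at 0.35 and 0.28, Tpm1 at 0.17 and 0.23, and Ccn1 at -0.03 and 0.11. Actg2 stood at 0.24 and 0.04. Acta2 stood at -0.76 and -0.56 and Actc1 at -0.45 and -0.03, so these actin genes stood below GFP where Smc1 stood above it. With median centring or quantile normalization of the arrays Actc1 in Smc2 lay on the other side, at 0.071 and 0.070, and with median centring Ccn1 in CapH2 at 0.043. The lowest adjusted p among these 7 genes was 0.434, for Acta2 in CapH2. In CapH2, 3 of 10 genes lay above GFP without overlap, where 25.3% of all genes did, and Actc1 lay below, where 21.9% did. In Smc2, 5 of 10 lay above without overlap, where 23.2% of all genes did, and none below, where 21.7% did. The share of all genes called was 0.0161% in each comparison, which is 2 genes in each. Both comparisons share the GFP arrays with the one on which the genes were chosen, so their values are no independent account of these genes.

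**Figure D2:**
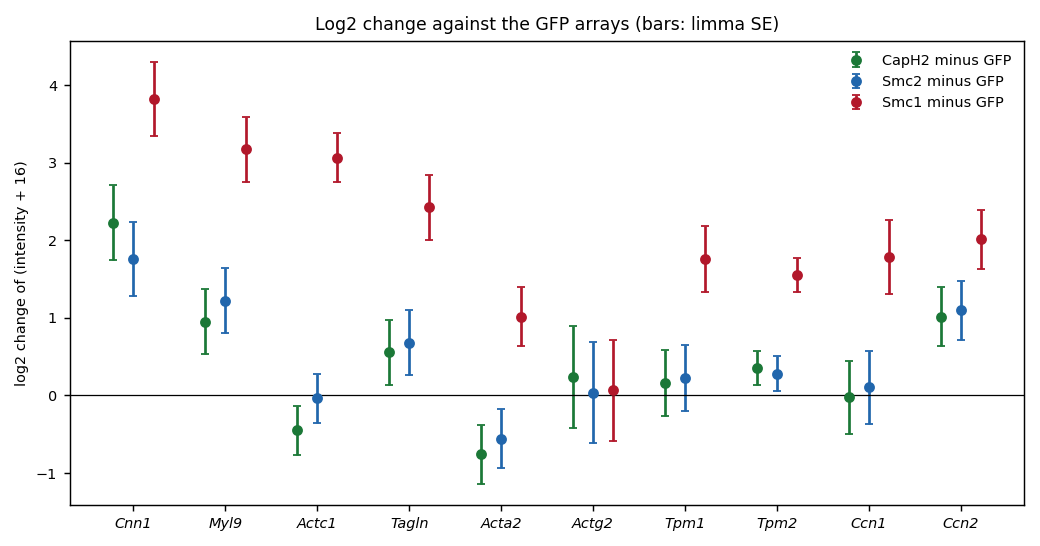
Log2 difference from GFP of intensity + 16 for the 10 genes in the CapH2, Smc2 and Smc1 knockdowns, with limma standard errors (2 arrays per group). The Smc1 points lie above the condensin points in every gene but Actg2, and Acta2 and Actc1 lie below 0 in both condensin knockdowns, Actc1 in Smc2 at -0.03 and with median centring at 0.071.

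The differences between CapH2 and Smc2 use none of the arrays on which the genes were chosen. Their intervals and p-values pool the spread of all 8 arrays, those included. Earlier results of these data were known when the genes were chosen. Actg2 passed the filter through 1 array of each group compared here. None of the 10 genes was called, where 0.00806% of all genes were, and the groups overlapped in all 10, where 12.6% of all genes lay higher and 10.2% lower in CapH2 without overlap. The largest difference was that of Cnn1, 0.47 on the log2 scale (95% confidence interval -0.60 to 1.54, limma adjusted p = 1.00), and Tpm2 had the narrowest interval, 0.07 (-0.42 to 0.56, adjusted p = 1.00). The widest interval was that of Actg2, -1.26 to 1.66. In 8 of the 10 genes the interval reached past a 2-fold difference (1 on the log2 scale) on at least 1 side, so these values do not show that the knockdowns act alike. At an unadjusted p below 0.05 there was none of the 10 genes and 128 of all genes.

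In 3 of the 4 groups 9 or 10 of the 10 genes differed between the arrays in 1 direction, and in Smc2 they did not. On CapH2 hairpin 3 all 10 genes lay above hairpin 4, where 51.4% of all genes did, with a median log2 difference of 1.24 against 0.01 over all genes. Ccn1 differed by 3.29-fold between these arrays, Tpm1 by 2.85-fold, Ccn2 by 2.46-fold, Acta2 by 2.41-fold and Tagln by 2.34-fold. Differences of more than 1 on the log2 scale in this direction were seen in 6 of 10 genes, where 2.71% of all genes had them. Between the GFP arrays all 10 genes lay lower on replicate 1, with a median difference of -0.62, where 47.4% of all genes lay higher there. In Smc1, 9 of 10 lay higher on replicate 1, with a median difference of 0.50, where 44.5% of all genes did, and the exception was Actg2.

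The Smc2 arrays did not show a common direction, since 6 genes lay higher on hairpin 1 and 4 on hairpin 2, where 44.8% of all genes lay higher on hairpin 1. Cnn1 differed by 3.31-fold and Myl9 by 2.01-fold with hairpin 1 higher, while Tagln and Acta2 lay lower there, at 0.752 and 0.701 times the level with hairpin 2. Tpm1 lay at 1.05 and Tpm2 at 0.98 times the level with hairpin 2. The Actb ratio was lower on CapH2 hairpin 3 than on hairpin 4, lower on Smc1 replicate 1 than on replicate 2, and lower on GFP replicate 2 than on replicate 1, the same order as the higher levels of these genes. It was also lower on Smc2 hairpin 1, where the levels had no common order. Its part in the order was not tested. With 1 pair of arrays per group these orders have no replicate check.

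**Figure D3:**
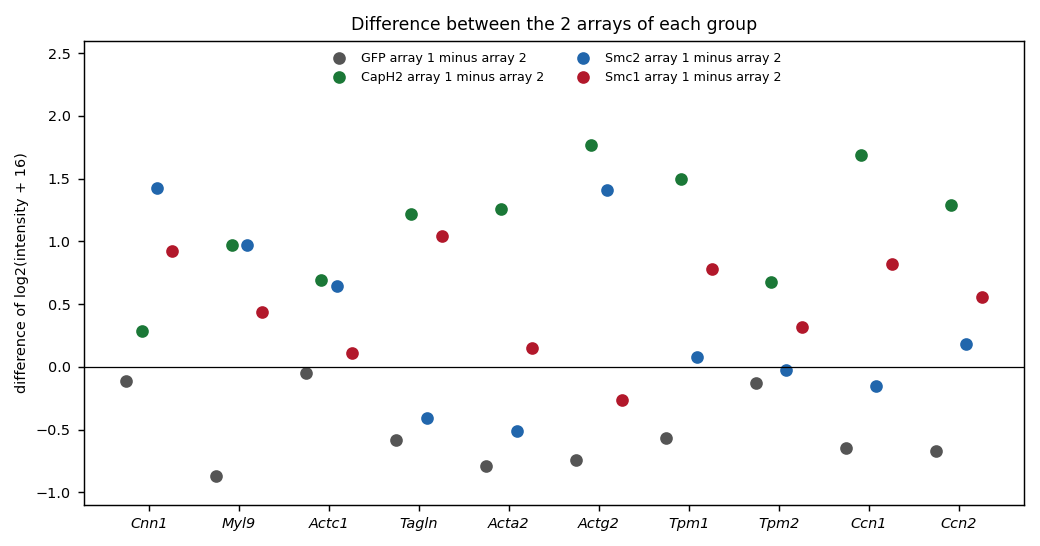
Difference of log2(intensity + 16) between the first and the second array of each group for the 10 genes, where the first is replicate 1 of GFP and Smc1, CapH2 hairpin 3 and Smc2 hairpin 1. All GFP points lie below 0 and all CapH2 points above it, while the Smc2 points lie on either side.

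Other lists differed between the arrays of a group as well. Between the GFP arrays 18 of 21 other Yap and Taz targets lay lower on replicate 1, with a median of -0.63, as did 7 of 7 genes for Srf and its cofactors, with a median of -0.58, 12 of 13 Tgf-beta genes, 12 of 15 fibroblast markers and 6 of 7 early mesoderm markers. Between the Smc1 arrays 14 of 21 Yap and Taz targets lay higher on replicate 1 (median 0.16), but 3 of 7 Srf genes did. Between the CapH2 arrays 15 of 21 Yap and Taz targets and 6 of 7 Srf genes lay higher with hairpin 3 (medians 0.61 and 0.49). Fibroblast markers lay higher with hairpin 3 in 11 of 15 genes (median 0.30) and embryonic stem cell markers in 5 of 12 (median -0.06).

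Across the 8 arrays, Pearson's r of each gene with the mean of the other 9 was 0.981 for Tpm2, 0.972 for Tpm1, 0.963 for Myl9, 0.962 for Tagln, 0.944 for Ccn1 and 0.911 for Ccn2. It was lower for Actc1 (0.877), Cnn1 (0.807) and Acta2 (0.754), and 0.268 for Actg2. The Smc1 arrays, which set the genes' choice, weigh heavily in these values. Among the other genes tested, those most like the mean of the 10 were Car4 (r = 0.994), a carbonic anhydrase, Ccdc120 (0.993), Plac1 (0.990), a placental gene, F2r (0.990), the thrombin receptor, and Spin2c (0.989). Car4 measured 3575 and 2509 on Smc1, 326 and 477 on GFP, 861 and 327 in CapH2, and 675 and 562 on Smc2. These are the highest 5 correlations among all genes tested, over 8 arrays.

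Of the 21 probe sets of the 10 genes, 18 had a log2 difference between Smc1 and GFP above 0. In 17, both Smc1 arrays lay above both GFP arrays, as in 34.6% of all genes at 1 probe set each. The genes were chosen on this difference, so these counts are a description. Ccn1 had 4 probe sets, at 1.79, 1.96, 1.01 and 2.47, all in 1 direction. Those at 1.79, which stands for the gene, and 2.47 are of the kind named _x_at, which can bind other transcripts. The one at 2.47 rests on GFP values of 19.7 and 46.3, below the array medians. Tpm1 had 1.77 and 1.15 on its bright probe sets, 0.93 on a dimmer one and -0.16 on the dimmest, whose mean over the arrays was 45.2. Tpm2 had 1.55 and 1.68 on bright probe sets, 0.43 on a dimmer one (mean 166), also named _x_at, and -0.33 on the dimmest (mean 93.3). On that dimmest probe set both Smc1 arrays (75.4 and 103) lay below both GFP arrays (118 and 111). The other Acta2 probe sets never reached the array median and stood at -0.31 and 0.55. The 6 other genes have 1 probe set each.

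**Figure D4:**
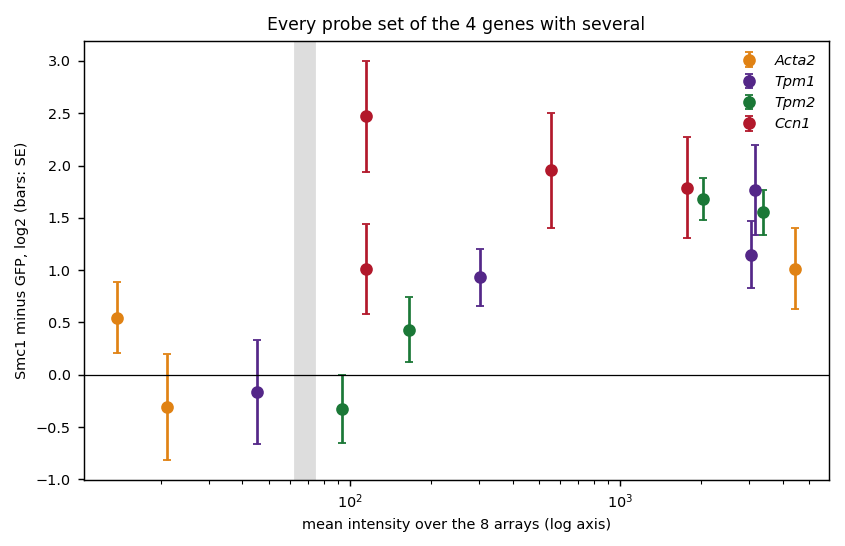
Log2 difference between Smc1 and GFP (limma SE, 2 arrays per group) against mean intensity over the 8 arrays (log axis) for every probe set of the 4 genes with several, with a grey band over the array medians. Probe sets with a mean over 1000 lie between 1.01 and 1.79, and the 3 that lie below 0 have means under 100.

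The regulators of these genes were measured next, from lists that do not hold the 10 genes. These lists and those below were written with earlier results of these data known. Their Smc1 values come from the Smc1 and GFP arrays on which the 10 genes were chosen. Their counts are thus no independent account beside the 10 genes. Srf measured 853 and 637 on Smc1, 305 and 539 on GFP, 599 and 436 in CapH2, and 595 and 355 on Smc2. Its log2 difference between Smc1 and GFP of 0.83 (SE 0.330) was not called (limma adjusted p = 0.118, n = 2 per group). Of its cofactors, Mrtfb rose by 0.85 (adjusted p = 0.0484) and Mrtfa stood at 0.48 (adjusted p = 0.285), while Myocd, the muscle-restricted myocardin, measured 23.8 at most on any array and was not tested. Fhl2, an LIM protein that binds Srf, rose by 1.76 (adjusted p = 0.00875) and Elk3, a ternary complex factor, by 1.70 (adjusted p = 0.0227). In all, 3 of the 7 genes tested of this list rose and none fell, where 9.38% of all genes were called higher and 4.69% lower. In Smc1 the counts were 0 without Smc1 replicate 1 or GFP replicate 1, 1 without Smc1 replicate 2 or GFP replicate 2, and 0 with the Actb ratio as a covariate.

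Yap1 measured 3433 and 3505 on Smc1, 2867 and 3260 on GFP, 3703 and 3280 in CapH2, and 3501 and 3250 on Smc2, and its log2 difference in Smc1 was 0.18 (SE 0.152, adjusted p = 0.450). Wwtr1, which codes for Taz, stood at -0.40 (adjusted p = 0.240). Tead1 rose by 0.85 (adjusted p = 0.0110), while Tead2 (-0.59, adjusted p = 0.0692), Tead3 (0.23, adjusted p = 0.551) and Tead4 (0.01, adjusted p = 0.993) were not called. Vgll3, a Tead cofactor, rose by 2.78 (adjusted p = 0.00641). Thus 2 of 9 genes tested of this list rose and none fell, against 9.38% and 4.69% of all genes. The rises numbered 0 without Smc1 replicate 1, without GFP replicate 1 and with the Actb ratio as a covariate, 1 without Smc1 replicate 2, and 2 without GFP replicate 2.

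Among Hippo kinases and upstream regulators, 5 of 15 rose and none fell in Smc1 (list median 0.37), against 9.38% and 4.69% of all genes. Lats2, a kinase that inactivates Yap and is itself a Yap target, measured 1045 and 783 on Smc1 and 62.7 and 131 on GFP, a rise of 3.10 (SE 0.393, adjusted p = 0.00276). Amotl2 rose by 1.52 (adjusted p = 0.00563) and Amot by 2.50 (adjusted p = 0.00792), both angiomotins, which hold Yap at junctions. Of 21 other Yap and Taz targets 9 rose and 1 fell (median 0.85), against the same shares of all genes. Igfbp3 rose by 1.71 (adjusted p = 0.00235), and Lats2, Amotl2 and Ptpn14 of the Hippo list stand in this list too. Dlc1 fell by 1.04 (adjusted p = 0.0463).

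Without Smc1 replicate 1 the rises numbered 1 of the Hippo regulators and 2 of the Yap targets, and without GFP replicate 1 also 1 and 2. There were 4 and 6 when replicate 2 of either group was left out, and 2 and 3 with the Actb ratio as a covariate. Of the Yap targets 1 fell without Smc1 replicate 2 and none fell in the other 4 settings.

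Of 13 other smooth muscle contractile genes tested, 6 rose and 1 fell in Smc1 (median 0.43), against 9.38% and 4.69% of all genes. Pdlim7, a cytoskeletal scaffold, rose by 2.00 (adjusted p = 0.00235), Cnn2, a calponin of non-muscle cells, by 1.41 (adjusted p = 0.00941) and Nexn, a filament-binding protein, by 1.47 (adjusted p = 0.0149), while the amine oxidase gene Aoc3 fell by 1.41 (adjusted p = 0.0319). Of the genes measured in this list, Myh11, Mylk and Mrvi1 lay below the lowest array median on all 8 arrays. The summed level of the 19 genes measured in this list was 30614 and 22147 on Smc1, 9156 and 12111 on GFP, 12913 and 9044 in CapH2, and 8664 and 13355 on Smc2, a sum that follows its brightest probe sets, those of Cald1, Cnn2 and Csrp1. The rises numbered 1 without Smc1 replicate 1, 2 without GFP replicate 1 or GFP replicate 2, 5 without Smc1 replicate 2, and 2 with the Actb ratio as a covariate. No gene of the list fell in any of these 5 settings.

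Of 16 cardiac and sarcomere genes tested, 2 rose, none fell and the median was -0.06, so the share that rose was near the 9.38% of all genes called higher. Acta1, the actin of skeletal muscle, measured 2962 and 4824 on Smc1 and 242 and 585 on GFP, a rise of 3.27 (SE 0.577, adjusted p = 0.00781). Tnnc1, the troponin C of heart and slow muscle, rose by 2.36 (adjusted p = 0.00716). Myl2, Tnni1, Nppa and Nebl lay below the lowest array median on all arrays. Of 15 early mesoderm and cardiac progenitor markers listed, 14 were measured and 7 tested. None of those tested was called by limma in Smc1 or had an unadjusted p below 0.05, and their median was -0.07. T had no probe set of exactly 1 symbol. Mixl1, Tbx6, Tbx5, Hand2, Mef2c, Kdr and Foxf1 did not pass the filter, so nothing is said of these markers. The rises of sarcomere genes numbered 0 without Smc1 replicate 1 or GFP replicate 1, 1 without GFP replicate 2, and 2 without Smc1 replicate 2 or with the Actb ratio as a covariate.

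The counterparts of these genes outside muscle were measured as well. Of 12 non-muscle paralogs tested, 5 rose and none fell in Smc1 (median 0.40), against 9.38% and 4.69% of all genes. Actb, the cytoplasmic actin, stood at 0.04 (SE 0.112, adjusted p = 0.835). Myl12a and Myl12b, the light chains of non-muscle myosin, rose by 0.98 (adjusted p = 0.00304) and 0.86 (adjusted p = 0.00372), and Cnn2 is also in this list. Whether these genes and the 10 muscle and Ccn genes differed was not tested, because the latter were chosen on their difference. The rises numbered 1 without Smc1 replicate 1, 2 without GFP replicate 1, 4 without the other replicate of either group, and 3 with the Actb ratio.

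Of 24 other Srf targets of the cytoskeleton and early response, 9 rose and none fell (median 0.53), against 9.38% and 4.69% of all genes. Myh9, the heavy chain of non-muscle myosin, rose by 0.81 (adjusted p = 0.0207), Tgfb1i1, a focal adhesion adaptor, by 2.76 (adjusted p = 0.0225) and Itgb1, the integrin subunit, by 0.82 (adjusted p = 0.0227). Myh9 is also in the list of non-muscle paralogs. There were 0 rises without Smc1 replicate 1 or GFP replicate 1, and 5 and 4 when replicate 2 of Smc1 or of GFP was left out, and 1 with the Actb ratio. Of 4 other Ccn family genes only Ccn4 passed the filter, at 1.17 in Smc1, and it was not called.

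Of 13 Tgf-beta ligands, receptors and targets tested, 2 rose and 1 fell, with a median of 0.34. These shares were near those of all genes, of which 9.38% were called higher and 4.69% lower. The receptor gene Tgfbr2 rose by 1.70 (adjusted p = 0.0177), Ltbp2 by 1.35 (adjusted p = 0.0240), and Tgfbi fell by 1.05 (adjusted p = 0.0325). No gene of this list was called without either Smc1 array, without GFP replicate 1 or with the Actb ratio as a covariate, and 1 rose without GFP replicate 2. In all lists of non-members the comparisons of CapH2 or Smc2 with GFP, and CapH2 with Smc2, gave 0 calls by limma. At an unadjusted p below 0.05 these lists had 29, 25 and 3 of their 159 genes tested, beside 1568, 1565 and 128 of all 12400 genes. With the mean over all probe sets of a gene the rises in Smc1 numbered 1 for Srf and its cofactors, 1 for Yap, Taz and Tead factors, 2 for Hippo regulators, with 1 fall, 5 for Yap and Taz targets, 3 for non-muscle paralogs, 4 for other Srf targets and 0 for fibroblast markers. Other Srf targets had 5 rises without the expression filter and 3 without the intensity trend.

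**Figure D5:**
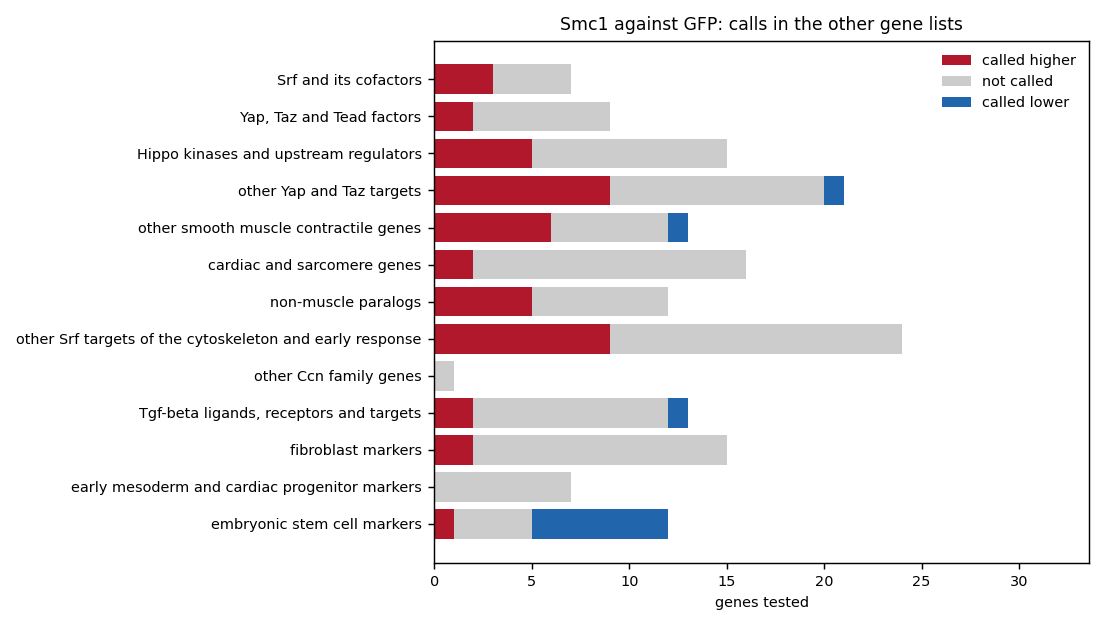
Number of genes tested in each list of non-members, split into those called higher, not called and called lower in Smc1 against GFP (limma adjusted p below 0.05). The lists of other Yap and Taz targets and of other Srf targets have 9 genes higher each, and only the embryonic stem cell markers have more genes lower than higher. Over all genes, 9.38% were called higher and 4.69% lower.

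Several of the 10 genes are also expressed by fibroblasts, so markers of those cells were read beside them. Of 24 fibroblast markers listed, 23 were measured and 15 tested. In Smc1, 2 rose, Col3a1 by 1.92 (adjusted p = 0.0154) and Pdgfra by 1.37 (adjusted p = 0.0408), none fell, and the list median was 0.51, where 9.38% of all genes were called higher. The summed level of the 23 markers was 9796 and 8835 on Smc1, 6957 and 10971 on GFP, 11490 and 10106 in CapH2, and 9731 and 8088 on Smc2, so that Smc1 lay within the range of GFP. Such a sum over probe sets follows the brightest of them, here that of Vim, and is set only against the same sum on other arrays. Without Vim it was 2802 and 2458 on Smc1, 1650 and 1765 on GFP, 2762 and 2045 in CapH2, and 1995 and 2364 on Smc2. No marker was at 0, and Dcn, Lum, Twist2, Prrx1 and Fap lay below the lowest array median on all 8 arrays. The part of other cells in the levels of the 10 genes was not tested. The rises numbered 0 without Smc1 replicate 1 or GFP replicate 1, and 1 without the other replicate of either group or with the Actb ratio.

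Of 12 embryonic stem cell markers, 7 fell and 1 rose in Smc1, with a median of -0.77, where 4.69% of all genes were called lower and 9.38% higher. Klf4 fell by 1.49 on the log2 scale (adjusted p = 0.00276) and Nanog by 0.73 (adjusted p = 0.00521). Esrrb fell by 1.57 (adjusted p = 0.00773), and Lin28a, an RNA-binding protein, rose by 1.05 (adjusted p = 0.0461). Their summed level was 92259 and 110232 on Smc1, 147265 and 143502 on GFP, 127003 and 130693 in CapH2, and 136102 and 141576 on Smc2. It was lower on Smc1 replicate 1 than on replicate 2, and lower on CapH2 hairpin 3 than on hairpin 4, the arrays with the higher levels of most of the 10 genes. It was also lower on Smc2 hairpin 1 than on hairpin 2, where the 10 genes had no common order. The sum follows its brightest probe sets, those of Dppa5a and Tdgf1. By gene, 1 of the 12 markers lay higher on Smc1 replicate 1, 5 on CapH2 hairpin 3 and 4 on Smc2 hairpin 1. The median log2 differences were -0.24, -0.06 and -0.08. The falls numbered 1 when Smc1 replicate 1 was left out and 7 when replicate 2 of Smc1 was, 4 and 2 when GFP replicates 1 and 2 were, and 3 with the Actb ratio as a covariate, and none rose in these settings.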

How the data were processed

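Expression of 8 arrays in 4 groups of 2 was read from the intensities deposited by the authors, 1 linear value per probe set and array, which per the labels' protocols came from 100 ng of total RNA on one-colour Affymetrix 3' arrays. How probes were summarised is not stated in what was read here. The arrays have nearly equal trimmed means, from 489 to 490.0. Symbols are those of GEO's platform annotation, and 34554 of the 34758 probe sets used were matched to GRCm38.p6 by gene identifier. No positions of probe sets are given.

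Values were analysed as log2(value + 16), which understates changes of low genes. Each gene was represented by its brightest probe set (mean over the arrays), and a gene was tested if above the array median on at least 2 arrays (12400 genes). One model over the 8 arrays was fitted in limma 3.58.1 in R 4.3.3 (group means, intensity trend), with Benjamini-Hochberg adjustment over all genes within each of 5 comparisons. The fit was tested on simulated data. With 2 arrays a group, p-values rest on the spread pooled over groups, which mixes hairpins and replicates.

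Named were the 10 genes, the targeted genes, Srf, its cofactors Mrtfa, Mrtfb and Myocd, Yap1, Wwtr1, the Tead genes and Actb, up to 3 called genes a direction and list with the smallest adjusted p, and the 5 genes most like the 10. Actg1 was named in that rule too and is not analysed here. The genes and lists were chosen with earlier results of these data known. Alternatives were other pseudocounts, normalizations, filters and fits, and leaving out each array.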

Additional observations from a re-analysis of the deposited data

How the results depend on the processing

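With the Actb ratio as a covariate, an alternative chosen after seeing the data, Actg2 stood at -0.97 in CapH2, -0.42 in Smc2 and -1.38 in Smc1 against GFP and at -0.54 in CapH2 against Smc2. Tpm1 then stood at -0.56 in CapH2 and -0.049 in Smc2, Ccn1 at -0.17 in Smc2, and Cnn1 and Tpm2 at -0.019 and -0.10 in CapH2 against Smc2. Members called in Smc1 against GFP were 4, their median 1.21, and genes called 592 there, 1663 in Smc1 against the condensins, 48 in Smc2 against GFP and 2 in CapH2 against Smc2. With median centring Actc1 in Smc2 stood at 0.071 and Ccn1 in CapH2 at 0.043, and with quantile normalization Actc1 in Smc2 at 0.070, with 2 genes called in CapH2 against Smc2. With log2(value + 1) Actg2 in Smc2 stood at -0.0096. With the mean over probe sets Ccn1 in CapH2 stood at 0.27, Tpm1 in CapH2 against Smc2 at 0.16 and in Smc2 at -0.063, and genes called were 1 in CapH2, 1 in Smc2 and 0 in CapH2 against Smc2. Without the intensity trend genes called were 1, 0 and 0. With only the arrays compared they were 6, 0 and 0, and 2700 in Smc1 against GFP and 609 against the condensins, and without the expression filter 602 in the last. Members called in Smc1 against the condensins were 5 with the mean over probe sets, 5 without the filter, 4 without the trend and 5 with only the arrays compared. The cause was not tested, except that the last setting uses fewer arrays.

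With the replicate number as a block, members called were 6 in Smc1 against GFP and 5 in Smc1 against the condensins, and genes called were 1373 and 680, with 0 in Smc2 against GFP. The deviations of same-numbered Smc1 and GFP arrays correlated at 0.0661, so the numbers are not shown to pair the samples.

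Leaving out 1 array assumes that the lone array of its group varies like the other groups. Genes called ranged over 0 to 4 in CapH2 against GFP, 0 to 194 in Smc2 against GFP, 134 to 2197 in Smc1 against GFP, 0 to 3 in CapH2 against Smc2 and 10 to 1161 in Smc1 against the condensins. Members called ranged over 0 to 1 in Smc2, 3 to 9 in Smc1 against GFP and 1 to 9 against the condensins, and their medians over -0.048 to 1.02 in CapH2, 0.08 to 0.47 in Smc2, 1.57 to 2.24 in Smc1, -0.76 to 0.53 in CapH2 against Smc2 and 1.31 to 2.06 against the condensins. In CapH2 against Smc2 ranges spanned 0 for Acta2 (-0.83 to 0.43), Actg2 (-0.50 to 1.09), Ccn1 (-0.98 to 0.71), Ccn2 (-0.73 to 0.56), Cnn1 (-0.24 to 1.19), Myl9 (-0.76 to 0.21), Tagln (-0.73 to 0.49), Tpm1 (-0.81 to 0.69) and Tpm2 (-0.27 to 0.41). Against GFP they did for Actc1 in Smc2 (-0.36 to 0.29), Actg2 in CapH2 (-0.13 to 1.13), Smc2 (-0.34 to 0.74) and Smc1 (-0.31 to 0.44), Ccn1 in CapH2 (-0.87 to 0.82) and Smc2 (-0.22 to 0.43), Tagln in CapH2 (-0.048 to 1.17), and Tpm1 in CapH2 (-0.58 to 0.92) and Smc2 (-0.055 to 0.51), and against the condensins for Actg2 in Smc1 (-0.52 to 0.060). The small number of arrays and, for Actg2 and Cnn1, signal near or below the array medians limit the precision.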
